A study of Homo sapiens with 38 samples.

Results

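The screen followed what became of guide RNAs over 14 days of culture without inhibitor, in 4 libraries of cells labelled Hep3B. The vehicle group held 2 libraries of cells grown for 14 days with vehicle (labelled T1), and the T0 group held 2 libraries of cells taken before treatment. They were 4 of the 38 samples of the series, of which 32 were screen libraries and 16 came from this line, so each library was chosen by its label alone. All cells carried Cas9 and the TKOv3 library, a lentiviral pool of guides against human protein-coding genes, and were selected with puromycin before T0 was taken. Hep3B is a human HCC cell line. The other screened line, SNU-398, gave 4 libraries of the same design, and 3 control RNA libraries labelled Hep3B gave the RNA level of each gene. Whether the 2 libraries of a group came from different cultures is not stated. The p-values then reflect only how far such libraries spread, and that spread may be technical.

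In such a screen, Cas9 cuts the gene that a guide matches, and the repaired gene often no longer makes its protein. A cell that has lost a gene it needs for growth leaves fewer descendants, so guides against ribosome, proteasome or replication genes are known to become rarer with time, and guides against genes that restrain growth can become more common. Guides that match no human gene, and guides against genes that a cell does not express, are used to show how far guide levels drift without such an effect. The question of the comparison is which genes these cells needed to grow when no inhibitor was present.

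The table held 66890 guides for 18029 genes, with 132 control guides against LacZ, luciferase and EGFP. The vehicle libraries held 24555074 and 12096140 counts, against 46376708 and 27379348 counts in the T0 libraries. The guides were very uneven, since the most abundant 1% of them took 40.7% of the counts in each vehicle library and 40.8% in each T0 library. In genes with 4 guides, the most abundant guide held a median of 74.2% of the T0 counts. A count summed over a gene therefore often followed a single guide, and each gene is described here both by its sum and by its guides.

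The RNA libraries labelled Hep3B listed most markers of that label at or near 0. Of 16 markers of hepatocytes and HCC, 3 were listed at 0 FPKM in all control RNA libraries, AFP, APOA1 and TTR, and 15 were under 1 FPKM. ALB had 0.69, 0.43 and 0.45 FPKM and GPC3 had 0.05, 0 and 0.02 FPKM, while RBP4 reached 11.9, 12.8 and 16.2 FPKM. The summed level of the list was 13.3 to 17.3 FPKM. Of 17 markers of blood, fibroblast and endothelium, 15 were under 1 FPKM and 6 were listed at 0, with COL1A1 the highest at a mean of 3.67 FPKM. The keratins KRT8 and KRT18, found in most simple epithelia, had means of 479 and 357 FPKM. A value of 0 need not mean absent RNA, since SUPT4H1, an elongation factor that cells in general use, was also listed at 0 FPKM. The screen libraries hold guide counts only, so their cells could not be checked in this way, and Hep3B is used here for cells with that label.

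Guides that were rare at T0 were mostly lost by day 14, control guides included. The share of guides with no count in either vehicle library was 71.8% where the mean T0 count was under 10, 61.8% at 10 to 30, 25.9% at 30 to 100 and 1.11% at 100 to 300 (exact 95% binomial interval 0.917 to 1.34%, for counting error only). Of the 10341 guides with 300 to 1000 counts at T0, 1 was lost, and above that count none of 3264 guides with 1000 to 3000 counts and none of 2316 guides with more was. The control guides were lost in the same order, 68.6%, 65.7% and 15.4% in the 3 lowest classes, with 0 of 19 at 100 to 300. A guide change is given here as the log2 of the mean CPM with vehicle plus 1 over the mean CPM at T0 plus 1, where CPM is the usual count scaled to a common library total, here after TMM normalisation. Its SD over guides was 0.84 at 30 to 100 counts, 0.62 at 300 to 1000 and 0.26 at 3000 or more.

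**Figure D1:**
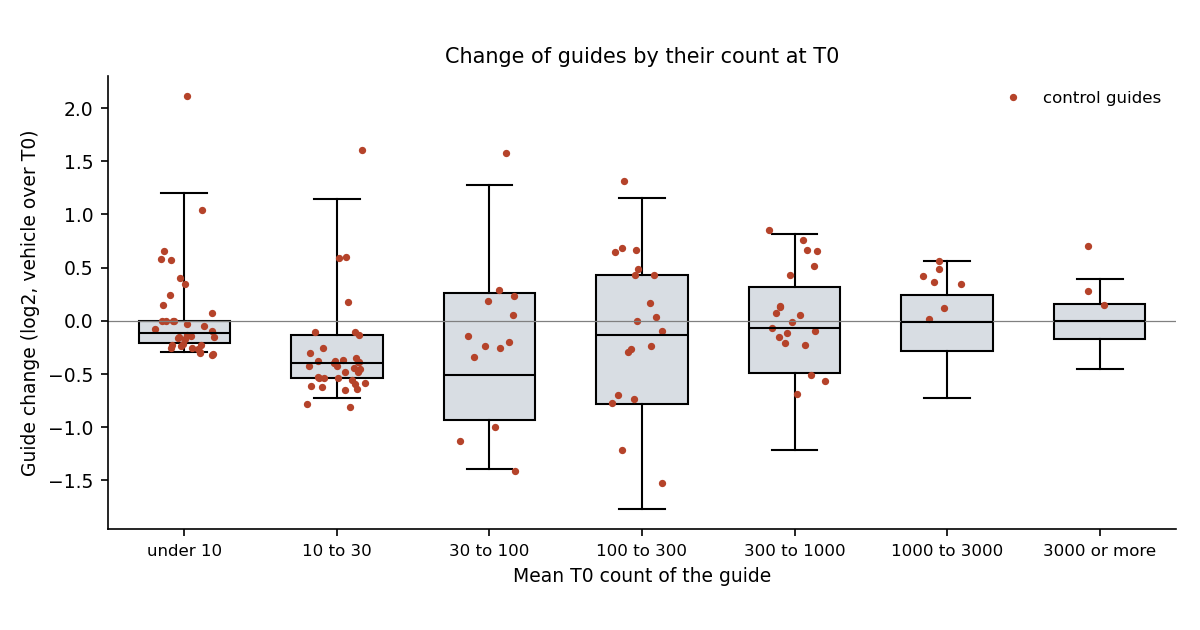
Guide change (log2, vehicle over T0, vertical axis) of all guides in classes of their mean T0 count (horizontal axis). Boxes give the median and quartiles, whiskers the 5th and 95th percentiles, and red points the single control guides. The boxes narrow towards high counts, and the control guides spread over much of the range of the other guides in the classes under 1000 counts. At 1000 to 3000 counts, the 7 control guides had a median of 0.367, against −0.013 over all guides. At 3000 or more, the 3 control guides had a median of 0.280, against 0.001.

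The vehicle libraries lost the same guides. At a mean T0 count of 30 to 100, 30.3% of 7702 guides were at 0 in vehicle replicate 1 and 31.0% in vehicle replicate 2, and 25.9% were at 0 in both. Of the guides lost in vehicle replicate 1, 85.4% were also lost in replicate 2, and 74.4 to 90.2% were at 0 in each of the 12 inhibitor libraries of the line, in which 40.5 to 59.1% of such guides were at 0. The log2 CPM of the guides correlated at r = 0.994 between the vehicle libraries, 0.995 between the T0 libraries and 0.947 between the group means (Pearson, over 66890 guides, which are not independent replicates). A chi-square of the counts came to 2.52 per degree of freedom between the vehicle libraries and 2.46 between the T0 libraries. Sampling alone gives 1, or 2 where every count is doubled, and most counts in these libraries were even numbers. The libraries differed by more than either and were kept as separate libraries.

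The test of each gene called many genes in both directions. In edgeR's quasi-likelihood test on gene sums over all 16 Hep3B screen libraries, in which the 3 control targets were counted as genes, 5954 of 17825 genes were lower with vehicle (33.4%) and 5201 were higher (29.2%) at a Benjamini-Hochberg adjusted p under 0.05. Of them, 2248 were lower and 855 higher by at least 1 on the log2 scale. In the same test on single guides, 14281 of 42958 guides were lower (33.2%) and 12539 higher (29.2%). Control guides were called in both directions as well, but lower less often and higher more often than all guides, a difference that was not tested. Of 83 tested, 15 were lower (18.1%) and 31 higher (37.3%). The split was 13 lower and 19 higher of 57 LacZ guides, 2 and 6 of 14 luciferase guides, and 0 and 6 of 12 EGFP guides. Olfactory receptors, sensory genes of the nose that serve here as genes with no known part in growth, gave 108 lower (32.5%) and 97 higher (29.2%) of 332 genes, with a median gene log2 fold change of −0.02. Calls are therefore read against these shares.

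Lists of genes for basic cell functions held more genes called lower, and fewer called higher, than all genes did. The share of genes called lower was 87.5% for the CCT chaperonin, 67.7% for the proteasome, 66.0% for mitosis, 62.5% each for DNA replication and translation factors, 61.5% for the V-ATPase and 57.6% for the cytosolic ribosome, against 33.4% over all genes. The shares called higher in these lists were 0 to 16.9%, against 29.2% over all genes. Lists were not tested as sets, and no list is called particular by these shares.

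**Figure D2:**
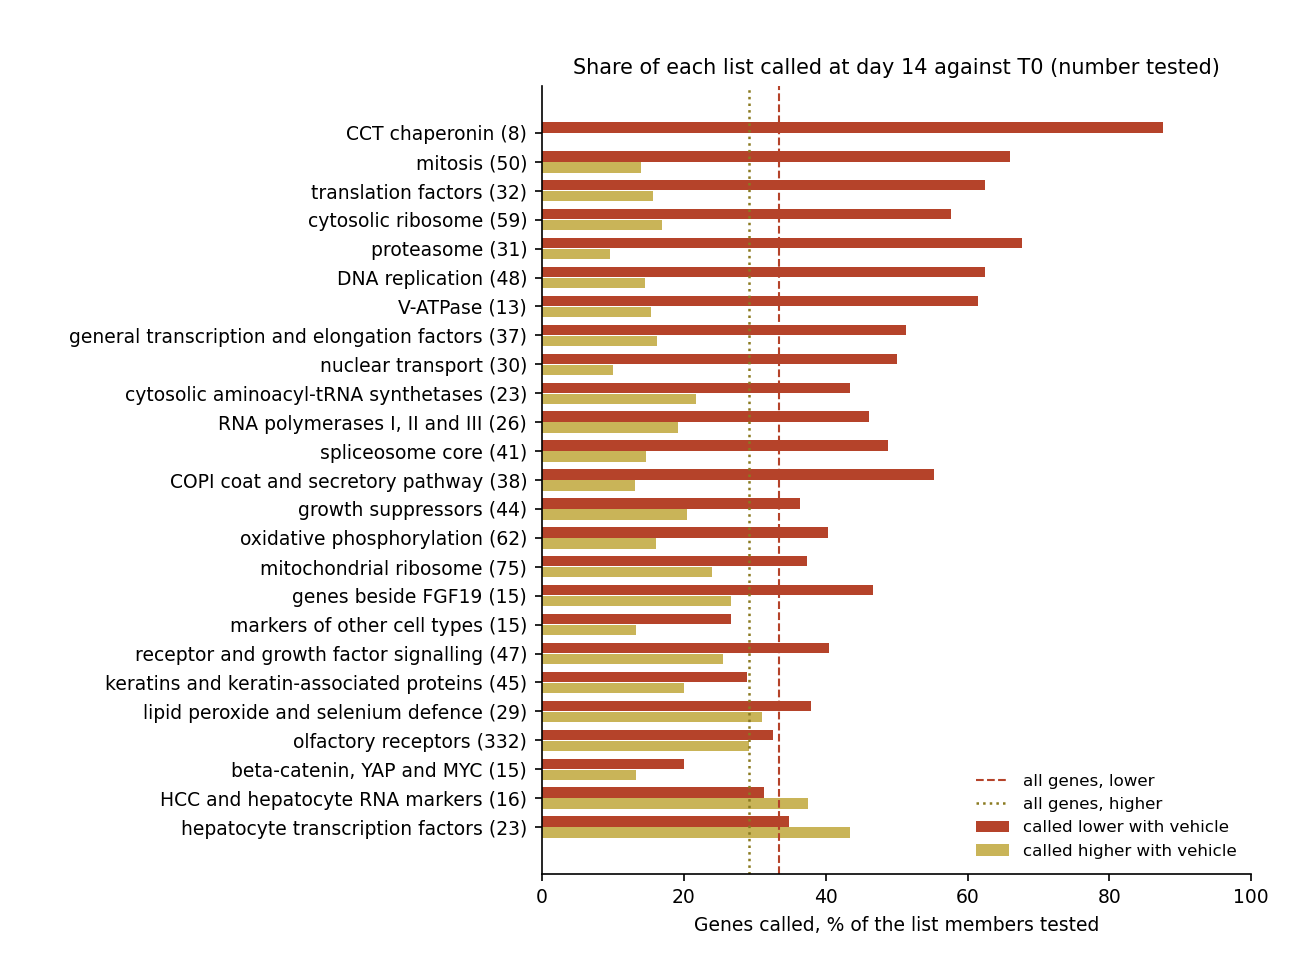
Share of each gene list called lower (red bars) and higher (yellow bars) with vehicle against T0, in % of the members tested, whose number stands in brackets. The dashed and dotted lines give the shares over all genes, 33.4% lower and 29.2% higher. The lists are ordered by their median gene log2 fold change, lowest at the top, and olfactory receptors sit close to both lines.

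Ribosomal proteins build the particle that makes all proteins. Of 59 tested, 34 were lower, 10 were higher and 15 were not called, with a median gene log2 fold change of −0.48, against −0.04 over all genes. RPS13, a protein of the small subunit, had 0.613 and 0.933 CPM with vehicle, against 7.12 and 7.07 CPM at T0. Its sum was lower with vehicle (log2 fold change −3.28 ± 0.33, SE, adjusted p = 8.63e-22). Its 3 tested guides were all lower. RPL14 had a mean of 41.5 CPM with vehicle and 71.7 CPM at T0, also with 3 of 3 tested guides lower. RPL11 had 28.9 CPM with vehicle and 68.1 CPM at T0, with both tested guides lower. RPS23 had 500.1 CPM with vehicle and 705 CPM at T0, but 99.4% of its T0 counts came from 1 guide, and 1 of its other guides was higher. RPL27 and RPS20 went the other way, with log2 fold changes of 1.83 and 1.67. The RPL27 guide with a mean T0 count of 66 was higher and that with 14 was lower. RPS20 had a single guide, with a mean T0 count of 132. RPL3, of the large subunit, was not called (0.920 and 0.933 CPM with vehicle, against 1.69 and 1.77 CPM at T0, adjusted p = 0.158).

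The proteasome degrades proteins marked with ubiquitin. Of its 31 genes, 21 were lower and 3 higher, with a median log2 fold change of −0.46. PSMB2, a subunit of the core particle, averaged 351 CPM with vehicle and 446 CPM at T0, and all 4 of its guides were lower. PSMD12, of the regulatory particle, averaged 0.812 CPM with vehicle and 8.28 CPM at T0, with 1 tested guide. PSMB5, the subunit that bortezomib binds, had 1.61 and 1.09 CPM with vehicle, against 5.19 and 4.42 CPM at T0 (log2 fold change −1.77). PSMA1 was higher, with a mean of 110 CPM with vehicle and 76.0 CPM at T0. All 8 CCT genes, which encode the chaperonin that folds actin and tubulin, were tested, and 7 were lower and none higher. The median log2 fold change of these genes was −0.56. CCT3 averaged 193 CPM with vehicle and 271 CPM at T0, and TCP1 averaged 9.65 CPM with vehicle and 19.7 CPM at T0.

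The cell cycle lists likewise held more genes called lower than higher. Of 48 DNA replication genes, 30 were lower and 7 higher, with a median log2 fold change of −0.42. RFC2, a clamp loader subunit, averaged 718 CPM with vehicle and 1565 CPM at T0, with 99.9% of the T0 counts from 1 guide. ORC2 of the origin recognition complex averaged 64.0 CPM with vehicle and 109 CPM at T0, with both tested guides lower. PCNA, the sliding clamp, had 12.04 and 13.1 CPM with vehicle, against 22.3 and 25.4 CPM at T0 (log2 fold change −0.93), with 2 of 4 tested guides lower. Of 50 mitosis genes, 33 were lower and 7 higher, with a median of −0.49. ECT2, which directs the cleavage furrow, averaged 334 CPM with vehicle and 508 CPM at T0. BUB1B, a spindle checkpoint kinase, averaged 114 CPM with vehicle and 162 CPM at T0. PLK1, a mitotic kinase, had 16.9 and 18.0 CPM with vehicle, against 27.6 and 29.8 CPM at T0 (log2 fold change −0.72). KIF11, the spindle motor, had 9.05 and 8.55 CPM with vehicle, against 18.8 and 17.6 CPM at T0 (log2 fold change −1.04). KIF11 had a single tested guide, with a mean T0 count of 703. ANAPC1, a scaffold of the anaphase-promoting complex, was called higher at a log2 fold change of 2.39, with 3 guides higher and 1 lower. Limited to guides with at least 30 counts at T0, its sum was called lower.

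The lists for the secretory pathway, gene expression and transport also held more genes called lower than higher. Of 38 genes of the COPI coat and secretory pathway, 21 were lower (55.3%, against 33.4% over all genes) and 5 higher (13.2%, against 29.2%). ARCN1, the delta subunit of the COPI coat, averaged 4.82 CPM with vehicle and 22.8 CPM at T0, and SRP54 of the signal recognition particle averaged 386 CPM with vehicle and 523 CPM at T0, each with 3 of 3 tested guides lower. COPB2, of the same coat as ARCN1, was higher at 1.49, with both tested guides higher. Of 30 nuclear transport genes 15 were lower (50%) and 3 higher (10%). NUTF2, which carries Ran into the nucleus, averaged 0.927 CPM with vehicle and 9.92 CPM at T0. Of 26 RNA polymerase genes 12 were lower (46.2%) and 5 higher (19.2%). POLR1A, the largest subunit of RNA polymerase I, had 1.07 and 0.777 CPM with vehicle, against 8.25 and 10.4 CPM at T0 (log2 fold change −3.26 ± 0.35, SE). POLR2A, its counterpart in RNA polymerase II, had 33.0 and 31.4 CPM with vehicle, against 39.6 and 36.8 CPM at T0 (log2 fold change −0.25, adjusted p = 0.014), a call that was lost without T0 replicate 1 (−0.19) or vehicle replicate 2 (−0.22). POLR2F was at 0 in both vehicle libraries and averaged 2.26 CPM at T0, at least 12.96-fold lower with vehicle against a floor of 3 counts per library. Of 41 spliceosome genes 20 were lower (48.8%) and 6 higher (14.6%), and of 32 translation factors 20 were lower (62.5%) and 5 higher (15.6%).

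The mitochondrial ribosome list lay nearer to all genes, of which 33.4% were lower and 29.2% higher. Of 75 mitochondrial ribosome genes, 28 were lower (37.3%) and 18 higher (24.0%). Of 62 oxidative phosphorylation genes 25 were lower (40.3%) and 10 higher (16.1%), the latter a share also seen in lists for basic functions. Of their guides with at least 30 counts at T0, 23.0% had a change below −1, against 12.9% over all genes. Cytosolic aminoacyl-tRNA synthetases, a list for a basic function, had 10 of 23 lower (43.5%) and 5 higher (21.7%). UQCRC2, a core protein of complex III, averaged 21.0 CPM with vehicle and 54.1 CPM at T0 with 3 of 3 tested guides lower. NDUFB6 of complex I averaged 47.8 CPM with vehicle and 18.1 CPM at T0, with 3 of 3 tested guides higher. MRPL22 and MRPL52, of the large mitochondrial subunit, were also higher with 3 of 3 tested guides each, at log2 fold changes of 0.95 and 1.04.

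Growth suppressors were called lower about as often as all genes. Of 44 tested, 16 were lower (36.4%, against 33.4% over all genes) and 9 higher (20.5%, against 29.2%), with a median log2 fold change of −0.18. TSC1, a brake on mTORC1, was at 0 in both vehicle libraries, against 1.81 and 1.22 CPM at T0, at least 8.71-fold lower with vehicle. Its guides had mean T0 counts of only 8 to 28, a range in which most guides were lost by day 14. Its partner TSC2 had 2.26 and 2.33 CPM with vehicle, against 8.77 and 8.22 CPM at T0 (log2 fold change −1.89). RB1, which holds back entry into S phase, was also lower, at −0.83 with 1 of 2 tested guides lower. KEAP1 (log2 fold change −0.04) was not called. NF2 was higher at 0.51, but its 2 tested guides went opposite ways, and with every guide weighted alike it was −0.48. FBXW7 and SOCS3 were higher at 0.65 and 0.57.

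FGF19, the ligand that signals through FGFR4 and its co-receptor KLB and is known as a driver of some HCC, was among the genes with the lowest guide changes. It had 7.21 and 6.99 CPM with vehicle, against 18.7 and 19.9 CPM at T0, 2.72-fold lower (log2 fold change −1.44 ± 0.13, SE, adjusted p = 5.3e-26). All 3 of its guides were lower, at changes of −1.40, −0.80 and −1.28. In the 12 inhibitor libraries of the line, FGF19 lay between 15.4 and 48.6 CPM, and 4 of them were below both T0 libraries. The RNA libraries listed FGF19 at 0 FPKM. FGFR4 was not called (17.2 and 16.9 CPM with vehicle, against 18.5 and 16.9 CPM at T0, log2 fold change −0.05). KLB had 5.06 and 8.08 CPM with vehicle, against 9.86 and 10.3 CPM at T0 (log2 fold change −0.66, adjusted p = 0.010), and the call was lost without vehicle replicate 1 (−0.31), T0 replicate 1 (−0.68) or T0 replicate 2 (−0.62). The value was −0.99 without vehicle replicate 2. FRS2, the adaptor of FGF receptors, averaged 3.21 CPM with vehicle and 11.5 CPM at T0, with 3 of 4 guides lower. CCND1, which lies beside FGF19, was lower at −0.41, and lost its call without vehicle replicate 1 (−0.32) or T0 replicate 2 (−0.35).

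Other growth signalling genes gave a mixed picture. Of 47 genes for receptors and growth factor signalling, 19 were lower (40.4%, against 33.4% over all genes) and 12 higher (25.5%, against 29.2%). RPTOR, the scaffold of mTORC1, averaged 4.52 CPM with vehicle and 13.8 CPM at T0, with both tested guides lower. MTOR had 2.07 and 3.11 CPM with vehicle, against 5.75 and 5.37 CPM at T0 (log2 fold change −1.16), with 1 guide lower and 1 higher, and was not called without vehicle replicate 1 (−0.84). LAMTOR1, which anchors mTORC1 regulators to lysosomes, was higher at 2.45, but its guides had mean T0 counts of only 2 to 15. Of 15 genes for beta-catenin, YAP and MYC, 3 were lower (20%) and 2 higher (13.3%). MYC was higher, with 18.9 and 21.3 CPM with vehicle, against 11.5 and 11.8 CPM at T0, but 98.7% of its T0 counts came from the 1 guide that was tested. CTNNB1 (log2 fold change 0.20), YAP1 (−0.11) and the survival genes MCL1 (0.15) and BCL2L1 (−0.10) were not called. CTNNB1 and YAP1 passed without vehicle replicate 2 (0.26 and −0.26), and YAP1 and BCL2L1 changed sign without vehicle replicate 1 (0.065 and 0.023). TEAD4, a DNA-binding partner of YAP, was higher at 0.65 with 3 of 4 guides higher.

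By gene sums, the list of hepatocyte transcription factors held more genes called higher than lower. Of 23, 8 were lower (34.8%, against 33.4% over all genes) and 10 higher (43.5%, against 29.2%), with a median gene log2 fold change of 0.14. Guides gave a mixed view. Of 12 genes with at least 3 guides tested, 3 agreed lower and 1 agreed higher. The median over genes of the median guide change was −0.18, against −0.17 over all genes. Over guides with at least 30 counts at T0, the median change was 0.07, against −0.12. NR2F2 averaged 98.3 CPM with vehicle and 50.3 CPM at T0, and FOXA2 averaged 13.6 CPM with vehicle and 5.29 CPM at T0, with both tested guides higher. XBP1, of the unfolded protein response, averaged 62.3 CPM with vehicle and 96.3 CPM at T0, and TBX3 averaged 4.83 CPM with vehicle and 12.4 CPM at T0, each with 3 of 4 guides lower. HNF4A was at 0 in both vehicle libraries, against 0.764 and 0.951 CPM at T0, at least 4.93-fold lower with vehicle, but none of its guides reached the count needed for a guide test and DESeq2 did not call it.

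Genes that guard against lipid peroxides were called in shares close to those of all genes. Of 29, 11 were lower (37.9%, against 33.4% over all genes) and 9 higher (31.0%, against 29.2%). GPX4, the selenoprotein that reduces lipid peroxides, had 11.2 and 12.6 CPM with vehicle, against 21.3 and 22.0 CPM at T0 (log2 fold change −0.87 ± 0.15, SE, adjusted p = 1.78e-08), with 2 of 3 tested guides lower. SOD2, the mitochondrial superoxide dismutase, had 139 and 145 CPM with vehicle, against 97.9 and 91.8 CPM at T0 (log2 fold change 0.58), with 3 of 3 tested guides higher. PSTK, which phosphorylates the seryl-tRNA on the way to selenocysteine, had 435 and 431 CPM with vehicle, against 409 and 392 CPM at T0 (log2 fold change 0.11), which was not called without T0 replicate 2 (0.08). The PSTK sum followed 1 guide with a mean T0 count of 15319.5, against 307, 306 and 10 for its other guides. That guide changed by 0.11, while the 3 control guides with at least 3000 counts had a median of 0.280. TXNRD1, LPCAT3 and SLC7A11 were higher at 0.90, 0.78 and 0.78, each with 1 guide called.

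Requiring that guides of a gene agree gave shorter lists. Of 8478 genes with at least 3 guides tested, 444 had at least 3 guides lower and none higher (5.24%), and 274 had at least 3 higher and none lower (3.23%). Since 33.2% of all guides tested were lower and 29.2% higher, unrelated guides would also meet this rule in some genes. That share was not computed, so agreement alone does not mark a gene as needed for growth. These counts moved with the libraries, to 245 lower and 159 higher without vehicle replicate 1, 601 and 201 without vehicle replicate 2, 204 and 153 without T0 replicate 1, and 311 and 160 without T0 replicate 2. Of 153 olfactory receptors, 4 agreed lower (2.6%) and 12 agreed higher (7.8%). The cytosolic ribosome had 4 lower of 16, the proteasome 3 of 15, the COPI coat and secretory pathway 6 of 24 and DNA replication 3 of 20, with 1 agreeing higher among these genes. Some other lists lay in the same range. Growth suppressors had 4 lower of 18 (22.2%), hepatocyte transcription factors 3 of 12 (25%) and genes beside FGF19 2 of 9 (22.2%). In these lists 0, 1 and 0 genes agreed higher. Of the 19 mitosis genes with at least 3 guides tested none agreed in either direction, and the same held for the 4 such CCT genes. Translation factors had 1 lower of 11 and nuclear transport 1 of 13, with 0 higher in each. Cytosolic aminoacyl-tRNA synthetases had 1 lower and 1 higher of 11, and the mitochondrial ribosome 0 lower and 2 higher of 39.

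The 15 genes with the lowest median guide change among those whose guides agreed and whose sum was called were ARHGAP6, GPR128, C17orf53, TNPO1, ATAD2B, GOLGA1, FGF19, TACO1, RPS13, GNB1L, MTCP1, CUX2, POLR1A, WDR96 and GTF2H4. Their values chose them and are given as a description. TNPO1, transportin, which carries proteins into the nucleus, had 3.14 and 4.197 CPM with vehicle, against 14.4 and 16.9 CPM at T0. GTF2H4, a subunit of the transcription and repair factor TFIIH, had 2.45 and 1.71 CPM with vehicle, against 9.41 and 9.31 CPM at T0. GOLGA1, a golgin of the trans-Golgi, had 0.997 and 0.622 CPM with vehicle, against 7.85 and 8.70 CPM at T0. The vehicle values of all 15 lay below their T0 values, which their choice by called guides and sums favours. The share over all genes is not given here, but 62.6% of all genes tested were called lower or higher. ARHGAP6 was lowest by this measure, with 2.15 and 2.18 CPM with vehicle, against 12.03 and 13.7 CPM at T0 and an RNA level of 0.297 FPKM. CUX2, at 0.003 FPKM, and GTF2H4, at 0.018 FPKM, were close to 0 in the RNA libraries as well. The last gene inside the list, GTF2H4, had a median guide change of −1.19, and the first outside it, FAM161A, had −1.17.

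**Figure D3:**
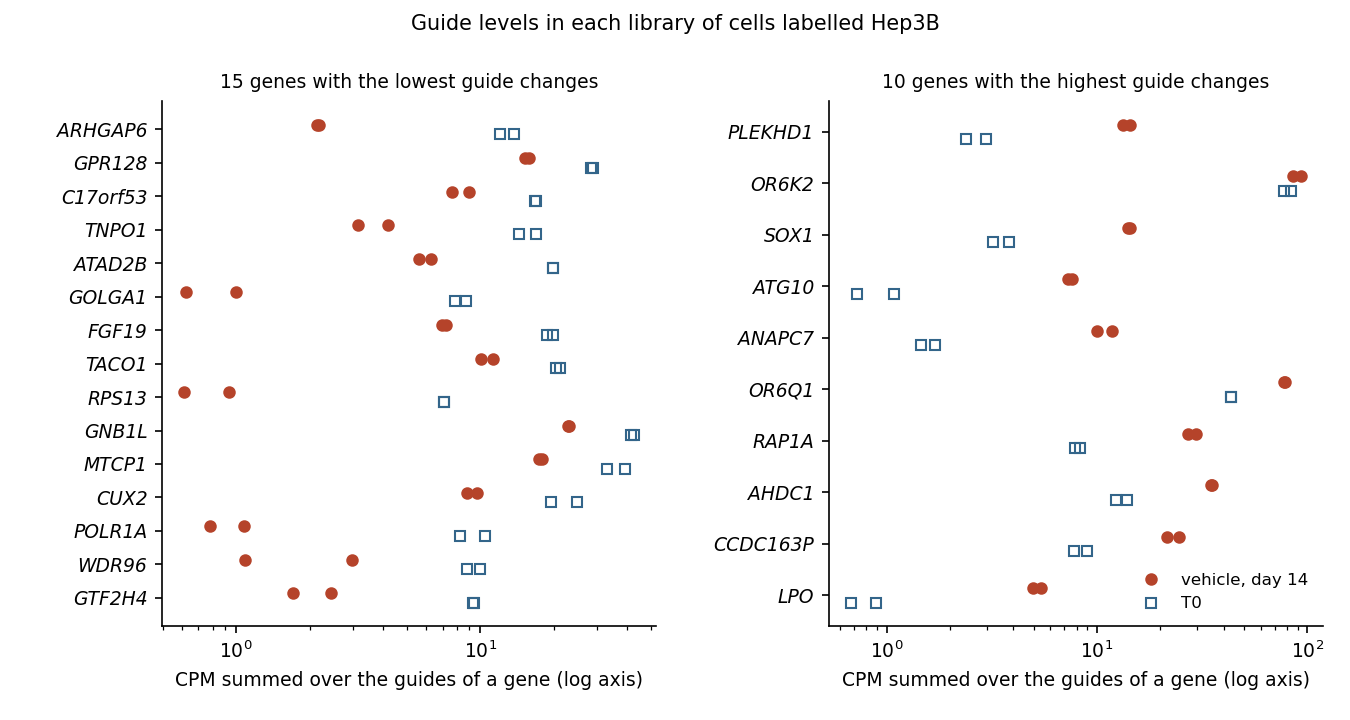
CPM summed over the guides of a gene (log axis) in each vehicle library (filled red circles) and each T0 library (open blue squares), for the 15 genes with the lowest (left) and the 10 with the highest (right) median guide change among genes with agreeing guides. The groups do not overlap for any gene shown, by which values the genes were also chosen, and OR6K2 has the smallest gap. The share of all genes without overlap is not given here.

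The 10 genes with the highest median guide change were PLEKHD1, OR6K2, SOX1, ATG10, ANAPC7, OR6Q1, RAP1A, AHDC1, CCDC163P and LPO, and 2 of them are olfactory receptors. ATG10, an enzyme of autophagosome formation, had 7.59 and 7.31 CPM with vehicle, against 0.724 and 1.09 CPM at T0, with all 4 guides higher, but these guides had mean T0 counts of only 5 to 13. RAP1A, a small GTPase of cell adhesion, had 29.4 and 27.04 CPM with vehicle, against 8.33 and 7.88 CPM at T0. ANAPC7, of the anaphase-promoting complex, had 10.05 and 11.8 CPM with vehicle, against 1.45 and 1.70 CPM at T0. Its guides called higher had mean T0 counts of 47, 5 and 6. OR6Q1 had 77.5 and 78.5 CPM with vehicle, against 43.2 and 43.5 CPM at T0. OR6K2 differed little in its sum (92.9 and 85.3 CPM with vehicle, against 77.8 and 83.6 CPM at T0), and lost its call without vehicle replicate 1 (log2 fold change 0.08) or T0 replicate 1 (0.10). LPO and FXYD7 stood on either side of the limit, both at a median guide change of 1.19. The guides of LPO had mean T0 counts of only 6, 4 and 22.

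RNA level, which the screen did not use, was set beside the calls for the 17056 tested genes that matched a gene of the RNA table. The share of genes lower with vehicle was 29.7% at 0 FPKM, 30.1% above 0 to 1, 34.7% above 1 to 10, 37.9% above 10 to 100 and 42.9% above 100. The share higher was 31.6% in the lowest class and 24.4% in the highest. The median gene log2 fold change was 0.00 in both classes up to 1 FPKM and −0.21 above 100 FPKM, a class of 275 genes. Among genes with at least 3 guides tested, 3.82% at 0 FPKM agreed lower, against 6.78% of only 118 such genes above 100 FPKM. Guides with at least 300 counts at T0 gave no rise with each class. The share of them with a change below −1 was 4.49, 4.24, 6.51, 6.88 and 6.22% from the lowest class to the highest. The share that agreed higher had no such order, at 3.50% at 0 FPKM, 2.23% above 10 to 100 and 4.24% above 100. Genes with agreeing lower guides had a median of 3.61 FPKM, those with agreeing higher guides 1.71 FPKM, and all genes with at least 3 guides tested 1.96 FPKM. Genes are not independent replicates, so these are descriptions.

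**Figure D4:**
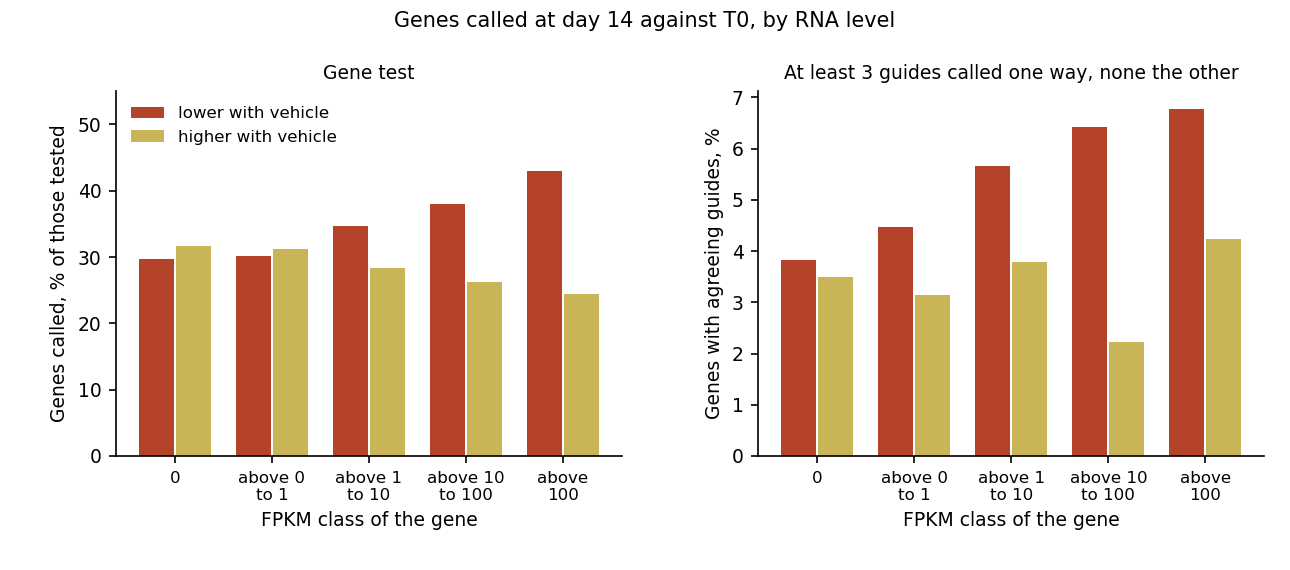
Share of genes lower (red) and higher (yellow) with vehicle against T0, by the mean FPKM of the gene in the 3 control RNA libraries. The left panel counts calls of the gene test, and the right panel counts genes with agreeing guides among those with at least 3 guides tested. The red bars go up with each class in both panels, to 42.9% and 6.78% above 100 FPKM, a class of 118 genes in the right panel.

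Within the same cells, the 6 inhibitor groups were also taken after culture and were set against the same T0 libraries, so their values are given side by side. Over guides with at least 30 counts at T0, the median guide change of the proteasome was −0.46 with vehicle and lay between −1.40 (Sorafenib) and −0.81 (Erastin) with an inhibitor. The cytosolic ribosome had −0.45 with vehicle and −1.02 to −0.57 with an inhibitor. All genes had −0.12 with vehicle and −0.57 to −0.27, and olfactory receptors −0.12 with vehicle and −0.43 to −0.23.

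SNU-398 libraries share no sample with Hep3B and gave the same contrast in a fit of 8 libraries. There, 4219 of 17960 genes were lower (23.5%) and 3956 higher (22%). Of the 444 genes with agreeing lower guides in Hep3B, 119 were called lower in SNU-398 (26.8%) and 84 higher (18.9%), against 23.1% and 23.7% of all genes with at least 3 guides tested in Hep3B. Of the 274 genes with agreeing higher guides, 83 were higher in SNU-398 (30.3%) and 56 lower (20.4%). Guides agreed lower in both lines for 17 genes, 3.83% of the Hep3B list and 5.41% of the 314 genes of the SNU-398 list. Of the 425 Hep3B genes of that list with at least 3 guides tested in SNU-398, these 17 are 4% and 8 agreed higher there (1.88%), against 2.74% lower and 1.37% higher over 8200 such genes. Another 8 agreed higher in both lines, with the control target EGFP among them. The 17 genes include the proteasome genes PSMB2 and PSMG1, the ribosome genes RPL14 and BRIX1, the N-terminal acetyltransferase gene NAA50 and the mitotic kinase gene PKMYT1, named for their known functions, beside others such as GSG1, GSTA4 and LCN2. Over 17960 genes, the log2 fold changes of the lines correlated at r = 0.175 (Spearman's coefficient 0.077), as a description across genes.

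**Figure D5:**
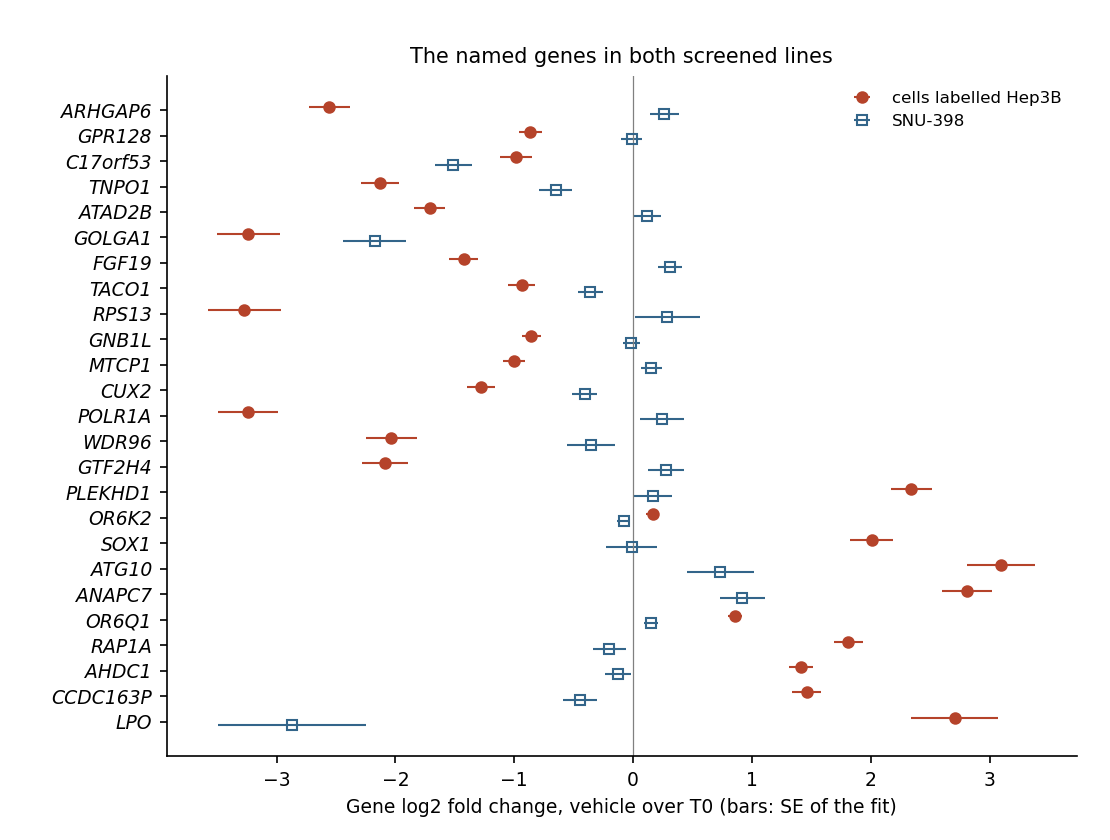
Gene log2 fold change, vehicle over T0 (horizontal axis, bars give the SE of the fit of 8 libraries), in cells labelled Hep3B (filled red circles) and SNU-398 (open blue squares), for the 25 genes named by their guide changes in Hep3B. The SNU-398 values lie closer to 0 for all of them except C17orf53 and LPO.

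The difference between the lines was tested itself, as an interaction in that fit, and 5498 of 17960 genes had a lower value in Hep3B (30.6%) and 5065 a higher one (28.2%). In that fit, FGF19 was at −1.43 in Hep3B and 0.31 in SNU-398, a difference of −1.73 ± 0.16 (SE, adjusted p = 5.32e-16). RPS13 was at −3.27 in Hep3B and 0.29 in SNU-398, and POLR1A at −3.24 in Hep3B and 0.24 in SNU-398. C17orf53, which acts with a helicase in DNA repair, was lower in both lines, at −0.99 in Hep3B and −1.51 in SNU-398. Since these genes were chosen by their Hep3B values, the choice favours a difference.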

How the data were processed

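Guide counts came from 32 screen libraries of Hep3B and SNU-398. The deposited screen tables hold raw counts of each guide, which the authors obtained by aligning amplified inserts with Bowtie2. No label or method read here states its version or the genome build behind the positions, so neither positions nor guide sequences are printed. Most of these counts were even numbers (93.1 to 98.0% in the libraries described), which was left as deposited. A few gene symbols in the table are dates made by a spreadsheet. The label T1 was read as vehicle, from the workflow of the study. For the RNA libraries, the authors deposited FPKM made from HISAT2 2.0.5 and featureCounts 1.5.0-p3 counts, by the submitters' processing notes, whose labels name mm9. The same table holds the authors' own comparison as deposited signal columns (mean normalized counts of a group), log2 fold changes and p-values, which were not used. Of 18029 genes, 17252 were matched by symbol to the RNA table.

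Counts summed per gene, and counts per guide, were tested in R 4.3.3 with edgeR 4.0.16 (TMM, filterByExpr, quasi-likelihood, contrast vehicle minus T0) over all 16 Hep3B libraries, with 8 residual degrees of freedom, since no test of this contrast is stated in the study's methods. SNU-398 and the difference between lines were tested in 8 libraries over the 64186 shared guides. Calls had an adjusted p under 0.05. Guides agreed where at least 3 were called one way and none the other. The floor of 3 counts was 0.115 and 0.233 CPM in the vehicle libraries, and 0.0603 and 0.102 CPM at T0, and it covers counting error only. Alternatives were other scalings, filters, pseudocounts, fits and left-out libraries, with DESeq2 1.42.0 and limma 3.58.1. The scripts were tested on simulated data, and Python 3.11.15 drew the figures with matplotlib 3.10.9.

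The members and lists were chosen with earlier results of these data known. Named genes were the 15 lowest and 10 highest by median guide change among genes with agreeing guides and a called sum, the called members of each list with the smallest adjusted p (up to 4, and up to 2 in the opposite direction, of which some are given), and a fixed set of 28 growth, suppressor and housekeeping genes, some of which are not reported here. FAM161A, FXYD7, the RNA value of SUPT4H1 and the genes that agreed in both lines were named after their values were seen.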

Additional observations from a re-analysis of the deposited data

Results flagged for a closer look

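For the 25 genes named by their guide changes in Hep3B, the change with vehicle against T0 differed between Hep3B and SNU-398 in the interaction test of edgeR at an adjusted p under 0.05. The genes were chosen by their Hep3B values, and 30.6% of all genes had a lower value in Hep3B and 28.2% a higher one by the same test. The difference on the log2 scale, Hep3B minus SNU-398, was −3.56 for RPS13, −3.48 for POLR1A, −2.82 for ARHGAP6, −2.36 for GTF2H4, −1.83 for ATAD2B, −1.73 for FGF19, −1.68 for WDR96 and −1.48 for TNPO1. It was −1.16 for MTCP1, −1.06 for GOLGA1, −0.88 for CUX2, −0.85 for GPR128, −0.84 for GNB1L and −0.58 for TACO1. C17orf53 was at 0.53, since it was lower in SNU-398 still. Among the genes higher with vehicle, the difference was 5.57 for LPO, 2.36 for ATG10, 2.17 for PLEKHD1, 2.02 for SOX1, 2.01 for RAP1A, 1.91 for CCDC163P, 1.89 for ANAPC7, 1.54 for AHDC1, 0.70 for OR6Q1 and 0.24 for OR6K2. The guides of LPO had mean T0 counts in Hep3B of only 6, 4 and 22, so the size of its difference is poorly set.

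Leaving out 1 library ended the call of 3 of these differences. That of C17orf53 was 0.38 without Hep3B vehicle replicate 1, 0.51 without Hep3B T0 replicate 1, 0.53 without Hep3B T0 replicate 2, 0.38 without SNU-398 T0 replicate 1 and 0.44 without SNU-398 vehicle replicate 2. That of GOLGA1 was −0.86 without Hep3B vehicle replicate 2, −0.998 without Hep3B T0 replicate 2, −0.90 without SNU-398 vehicle replicate 2 and −1.02 without SNU-398 T0 replicate 1. That of OR6K2 was 0.17 without Hep3B vehicle replicate 1, 0.18 without Hep3B T0 replicate 1 and 0.17 without SNU-398 vehicle replicate 1. The difference of WDR96 was −2.75 without Hep3B vehicle replicate 1. That of LPO, a gene with few counts, was 10.9 without SNU-398 vehicle replicate 1.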

How the results depend on the processing

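Counts of genes with agreeing guides depended most on the processing, against 444 lower and 274 higher. They were 269 and 99 with guides of at least 30 counts at T0, 678 lower with the 4 libraries alone and 1824 lower with no filter, and 204 to 601 lower and 153 to 201 higher with 1 library left out. Gene counts were 2248 lower and 855 higher at an absolute log2 fold change of at least 1, and limma with every guide weighted alike called 8495 lower and 3425 higher, against 5954 and 5201. With no filter, 25525 guides were lower. With 1 library left out, 4691 to 5263 genes were lower and 4213 to 4658 higher, and 10382 to 16175 guides lower. DESeq2 called 5106 lower and 4738 higher, and scaling by olfactory receptors 6292 and 4846.

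Median guide changes depended on the pseudocount and on guide depth. With 0.5 and 5 CPM, the cytosolic ribosome was at −0.48 and −0.22 and the proteasome at −0.50 and −0.28, and olfactory receptors were at −0.076 with 5 CPM. Over all guides the medians were −0.35, −0.29 and −0.17. Over guides with at least 30 counts they were −0.45, −0.46 and −0.12, and over guides with at least 300, chosen after seeing the data, −0.21, −0.42 and −0.035. In genes with at least 3 guides tested, the classes of RNA level had median guide changes of −0.083, −0.091, −0.12, −0.13 and −0.12.

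Of 1027 repeats of the gene log2 fold changes named in the text, 10 changed sign. With every guide weighted alike, FGFR4 was 0.12, YAP1 0.33, NF2 −0.48, KEAP1 0.10 and POLR2A 0.031. With 1 library left out, FGFR4 reached 0.018 without T0 replicate 1, and YAP1 ranged between −0.257 and 0.065, BCL2L1 between −0.201 and 0.023 and KEAP1 between −0.067 and 0.0017, each highest without vehicle replicate 1. ANAPC1 was −7.31 with guides of at least 30 counts at T0, a fitted value that depends on the prior count. The cause of these changes was not tested. The replicate number as a block gave 5830 genes lower and 5149 higher, and 398 and 240 with agreeing guides. The numbers are not known to pair libraries, since deviations of same-numbered vehicle and T0 libraries correlated at r = 0.022.

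A guide with under 30 counts at T0 often fell to 0 by day 14 whatever its target, so depletion of such guides was not separable from loss of rare guides at this depth.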

Other observations

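Genes were also ordered by the position of their guides along each chromosome, with guides of at least 30 counts at T0 and a running median over 25 genes. Over 15932 such windows in Hep3B, the median was −0.13 and the SD 0.14. The lowest window, at −0.86, lay on chromosome 4 around DCUN1D4. The 15 genes from TEC to RASL11B, over which the running median stayed under −0.5, had a median gene value of −0.72, and 13 of them were below 0. They include OCIAD2 (−1.22), USP46 (−1.29), SLC10A4 (−1.14) and SPATA18 (−1.03), and the last 2 had 0.081 and 0.004 FPKM. The 7 genes of the stretch at 1 FPKM or less had a median of −0.23, and the 8 genes above 1 FPKM had −0.79. In SNU-398 the genes of the same stretch had a median of −0.05, with 8 of 15 below 0. The next lowest window on another chromosome was −0.70, on chromosome 9 around ST6GALNAC6. The stretch was chosen after its values were seen, and neighbouring genes share windows, so these values carry no test.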
